A study of Mus musculus with 10 samples.

Results

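The genes described here code for the non-collagen part of the extracellular matrix and for markers of the fibroblasts and stellate cells that make it. They were taken as a list of 40 gene symbols and looked up among the transcript clusters (probe sets) of Affymetrix Mouse Gene 1.0 ST arrays that carry a single symbol, with the brightest cluster standing for a gene. Of the 40 symbols 37 were measured, among 19938 genes measured in all; Fbn1, Adamts2 and Loxl2 were not analysed here, the last because its cluster also carries another symbol. RNA came from whole mouse pancreas of mixed strain background, 5 samples labelled control and 5 labelled DKO. The DKO genotype is written PDX1Cre,Mst1-/-,Mst2L/L: a null allele of the Hippo kinase MST1, and a floxed allele of MST2 that is removed where Cre is made from the Pdx1 promoter, a promoter of pancreatic progenitor cells. The genotype of the controls, and the age and sex of the animals, are not given in the labels. Fibroblasts, stellate cells, endothelium and mesothelium do not descend from Pdx1-expressing cells, so in the DKO the cells that make most of this matrix would lack MST1 alone. A note in the labels calls the loss of both kinases pancreas-specific. Whether the samples of a group are all separate animals is not stated in the labels, and the p-values then rest on a spread between samples that may be in part technical.

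The matrix around cells is built of fibrils and sheets to which adhesive glycoproteins, proteoglycans and elastic fibres are attached. Metalloproteinases of the MMP and ADAMTS families cut these proteins, and tissue inhibitors of metalloproteinases (TIMPs) hold the proteinases in check. In the pancreas a thin stroma surrounds acini, ducts and vessels, and stellate cells expand it when the tissue is injured. MST1 and MST2 start the Hippo cascade, which restrains the coactivators YAP and TAZ, and these bind DNA through TEAD factors.

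Most of the matrix genes differed little between DKO and control pancreas, and 4 of the 37 passed the test (limma, adjusted p under 0.05 over all 19938 genes). Timp3, a matrix-bound inhibitor of MMP and ADAMTS proteinases, rose 1.42-fold, the proteoglycan gene Bgn 1.22-fold and the elastic fibre gene Mfap4 1.22-fold. Adamts1, a secreted proteinase that cuts proteoglycans such as versican, fell by a fold of 1.44. Levels are on the log2 scale, where a difference of 1 is a 2-fold change. On that scale 28 of the 37 genes differed by less than 0.2, beside 17185 of all 19938 genes, which is a larger share.

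The 4 called genes are 10.8% of those measured, beside 2.44% of all genes tested. Of all genes, 2.08% were called higher and 0.366% lower in DKO. At an unadjusted p under 0.05 there were 9 matrix and fibroblast genes (24.3%), 8 higher and 1 lower, against 14.8% of all genes (9.18% higher and 5.66% lower). The 5 DKO values lay entirely outside the 5 control values in 5 of the 37 (13.5%), 4 above and 1 below, against 4.80% of all genes (3.52% above and 1.28% below). The median log2 change of the 37 was 0.07, beside -0.006 over all genes, and 28 of the 37 (75.7%) were above 0, beside 47.6% of all genes. Most genes of this list are well expressed (median control mean 10.02, against 7.57 over all genes), while Tnc and Timp1 lie below the middle of all genes. In all, 10961 genes had a mean level that reached that of the dimmest of the list (7.30). Of these, 3.69% were called, 20.2% had an unadjusted p under 0.05, 7.13% did not overlap and 59.9% were above 0. Their median change was 0.03. This cut removes dim genes but does not match the list in level. The list was chosen with results of these data known, so these shares describe it and were not tested.

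**Figure D1:**
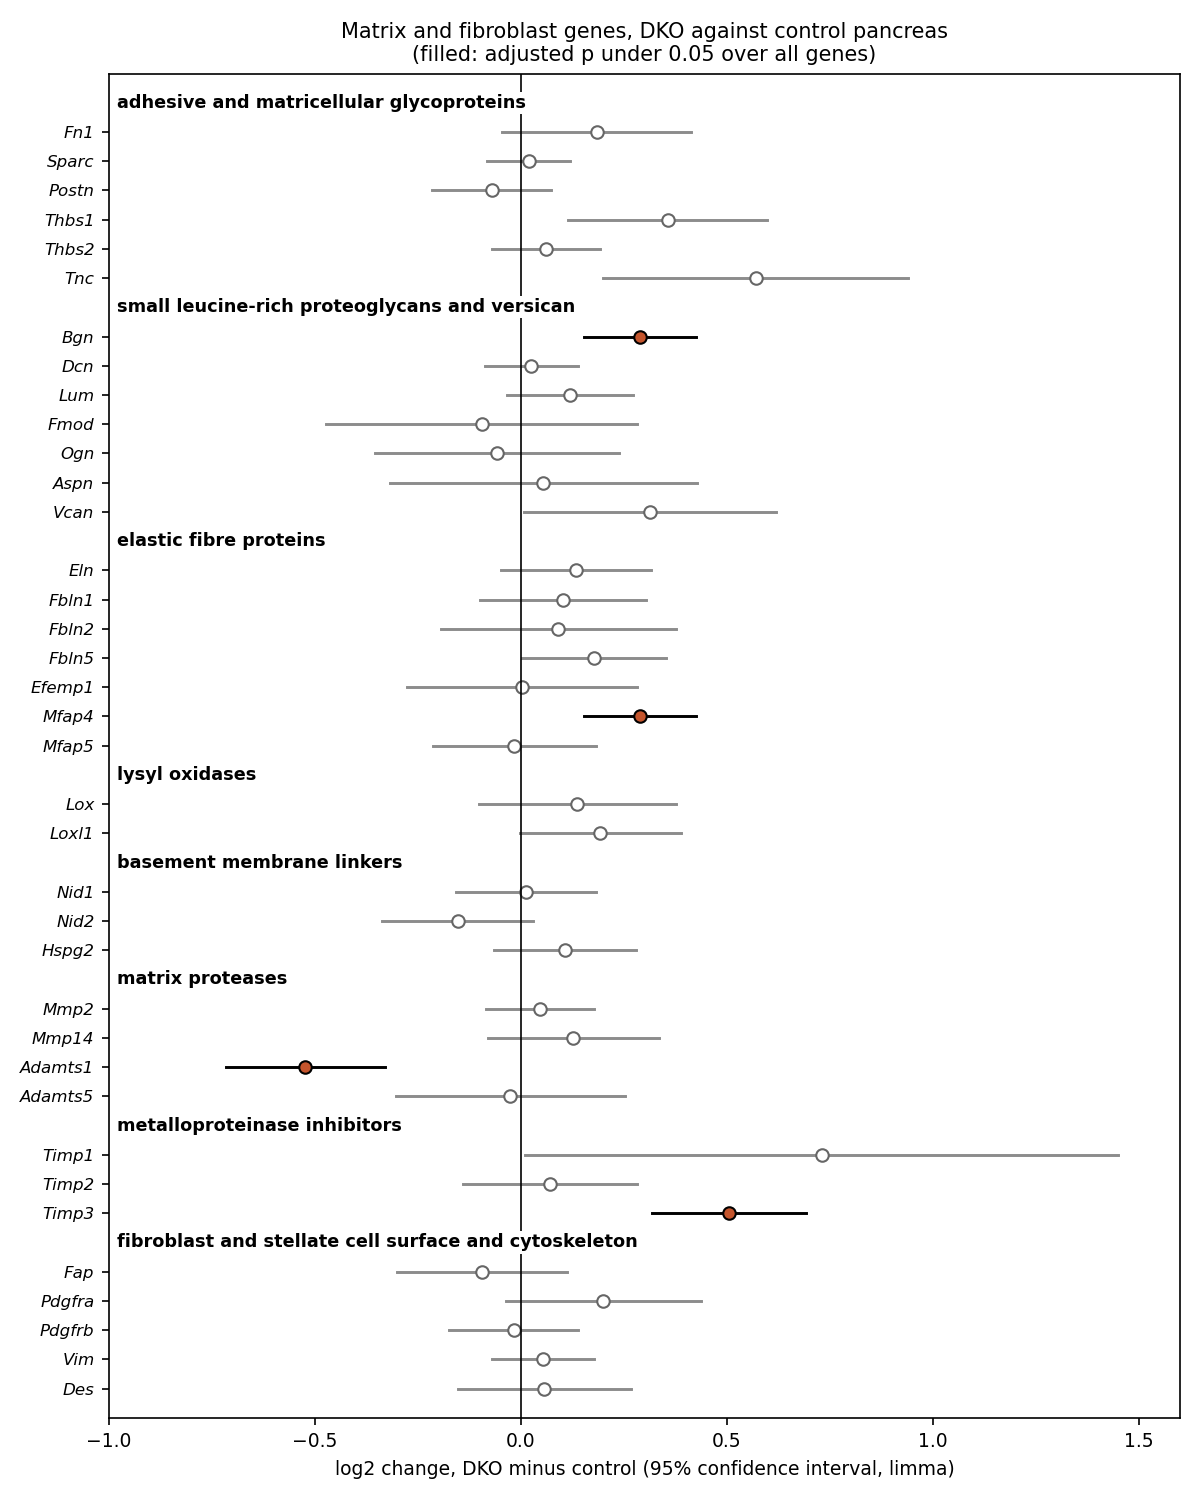
Log2 change of 37 matrix and fibroblast genes, DKO minus control, with 95% confidence intervals from limma (horizontal axis), grouped by role. Filled points mark the 4 genes with an adjusted p under 0.05: Timp3, Bgn and Mfap4 lie to the right of 0 and Adamts1 to the left.

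Upstream sequence is shown for the 3 called genes with a RefSeq promoter window, Timp3, Adamts1 and Bgn, and for Timp1, a relative of Timp3. Each is the 250 bases before the gene's start on assembly GRCm38.p6, read 5′ to 3′ on the gene's strand: chr10:86300162-86300411 on the plus strand for Timp3, chr16:85803114-85803363 on the minus strand for Adamts1, chrX:73483351-73483600 on the plus strand for Bgn and chrX:20869916-20870165 on the plus strand for Timp1. Capitals mark GGAATG, the core of the motif that TEAD factors bind, searched on either strand.
Timp3: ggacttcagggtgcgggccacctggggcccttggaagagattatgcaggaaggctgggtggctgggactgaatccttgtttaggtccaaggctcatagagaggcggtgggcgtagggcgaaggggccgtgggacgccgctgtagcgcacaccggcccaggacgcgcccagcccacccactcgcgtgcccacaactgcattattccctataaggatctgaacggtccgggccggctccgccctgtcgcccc
Adamts1: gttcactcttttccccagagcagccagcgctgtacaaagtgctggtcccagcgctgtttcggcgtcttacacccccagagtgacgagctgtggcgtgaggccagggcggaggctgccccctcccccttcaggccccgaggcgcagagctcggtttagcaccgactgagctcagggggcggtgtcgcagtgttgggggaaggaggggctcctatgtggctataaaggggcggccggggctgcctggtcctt
Bgn: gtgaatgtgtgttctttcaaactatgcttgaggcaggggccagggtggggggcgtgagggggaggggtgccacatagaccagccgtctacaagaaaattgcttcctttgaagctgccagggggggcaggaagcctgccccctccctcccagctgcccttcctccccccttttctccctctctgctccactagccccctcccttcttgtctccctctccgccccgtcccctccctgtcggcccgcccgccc
Timp1: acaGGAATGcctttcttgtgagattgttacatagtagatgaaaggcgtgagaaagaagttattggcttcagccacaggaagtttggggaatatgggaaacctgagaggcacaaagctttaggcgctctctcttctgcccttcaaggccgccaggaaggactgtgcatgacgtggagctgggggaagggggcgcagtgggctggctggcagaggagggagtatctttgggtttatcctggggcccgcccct
The letters GGAATG occurred at position -247 of the Timp1 window, counted back from the start, and in none of the windows of Timp3, Adamts1 and Bgn. Windows were found for 23 of the 37 genes, 27 windows in all. GGAATG was present in 3 of the 27 (11.1%), those of Timp1, Nid1 and Ogn, beside 12.6% of all 32851 windows in the table. Nid1 and Ogn changed by 0.01 and -0.06 and did not pass the test.

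The inhibitors held the largest increase past the test. Listed by replicate number from 1 to 5, here and for the genes that follow, Timp3 measured 10.29, 10.12, 10.09, 9.96 and 10.38 in the control arrays and 10.79, 10.53, 10.58, 10.75 and 10.72 in the DKO arrays. Every DKO array was above every control array. The mean rose from 10.17 ± 0.17 to 10.68 ± 0.11 (SD, n = 5 each), a log2 change of 0.51 ± 0.09 (SE, limma adjusted p = 0.0113; 95% interval 0.32 to 0.69), and the call held without any 1 array (highest adjusted p 0.0381, without control replicate 3). It ended when control replicate 2 and DKO replicate 4 were left out together, at a similar size of 0.48 (adjusted p = 0.0919).

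Timp1, a soluble inhibitor known to be induced in inflamed and regenerating tissue, measured 7.52, 7.21, 6.56, 6.76 and 7.24 in the control arrays and 7.50, 8.90, 6.97, 8.17 and 7.41 in the DKO arrays. DKO replicates 2 and 4 were higher than every control array, while DKO replicate 3 lay below 3 of the controls, and the groups overlapped. The difference of 0.73 ± 0.33 (SE) did not pass (limma adjusted p = 0.329, unadjusted p = 0.0471), and without DKO replicate 2 it was 0.45 (adjusted p = 0.461). Timp2, which inhibits MMP2 and also takes part in activating it at the cell surface, changed by 0.07 (95% interval -0.14 to 0.28). Differences among the 3 inhibitors were not tested.

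Of the 4 measured matrix proteases 1 fell and 3 did not pass. Adamts1 measured 9.21, 9.52, 9.45, 9.37 and 9.37 in the control arrays and 8.67, 9.05, 8.68, 8.97 and 8.93 in the DKO arrays. All 5 DKO arrays lay below all 5 controls, with DKO replicates 1 and 3 the lowest. The mean fell from 9.38 ± 0.11 to 8.86 ± 0.17 (SD, n = 5 each), a log2 change of -0.52 ± 0.09 (SE, limma adjusted p = 0.0110; 95% interval -0.72 to -0.33). The call held without any 1 array (highest adjusted p 0.0373, without control replicate 3) and ended without control replicate 2 and DKO replicate 4 together, at -0.52 (adjusted p = 0.0596).

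Its relative Adamts5, also a proteoglycan-cutting enzyme, changed by -0.03 (95% interval -0.30 to 0.25). Adamts9, a versican-cutting relative outside the 40 genes, has 6 clusters, of which only the brightest is given here. It measured 10.43, 10.43, 10.58, 10.99 and 10.46 in the control arrays and 10.91, 11.34, 11.02, 11.01 and 11.04 in the DKO arrays. Control replicate 4 lay within the DKO range, and the difference of 0.48 ± 0.11 (SE) did not pass (limma adjusted p = 0.0545). Adamts4 and Adamts15, further proteoglycan-cutting relatives, changed by 0.05 and 0.06. The gelatinase Mmp2 stood at 10.87 ± 0.09 in control and 10.92 ± 0.08 in DKO (SD, n = 5 each), a change of 0.05 (95% interval -0.08 to 0.18). Mmp14, the membrane-bound enzyme that activates MMP2, changed by 0.13 (95% interval -0.08 to 0.34).

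**Figure D2:**
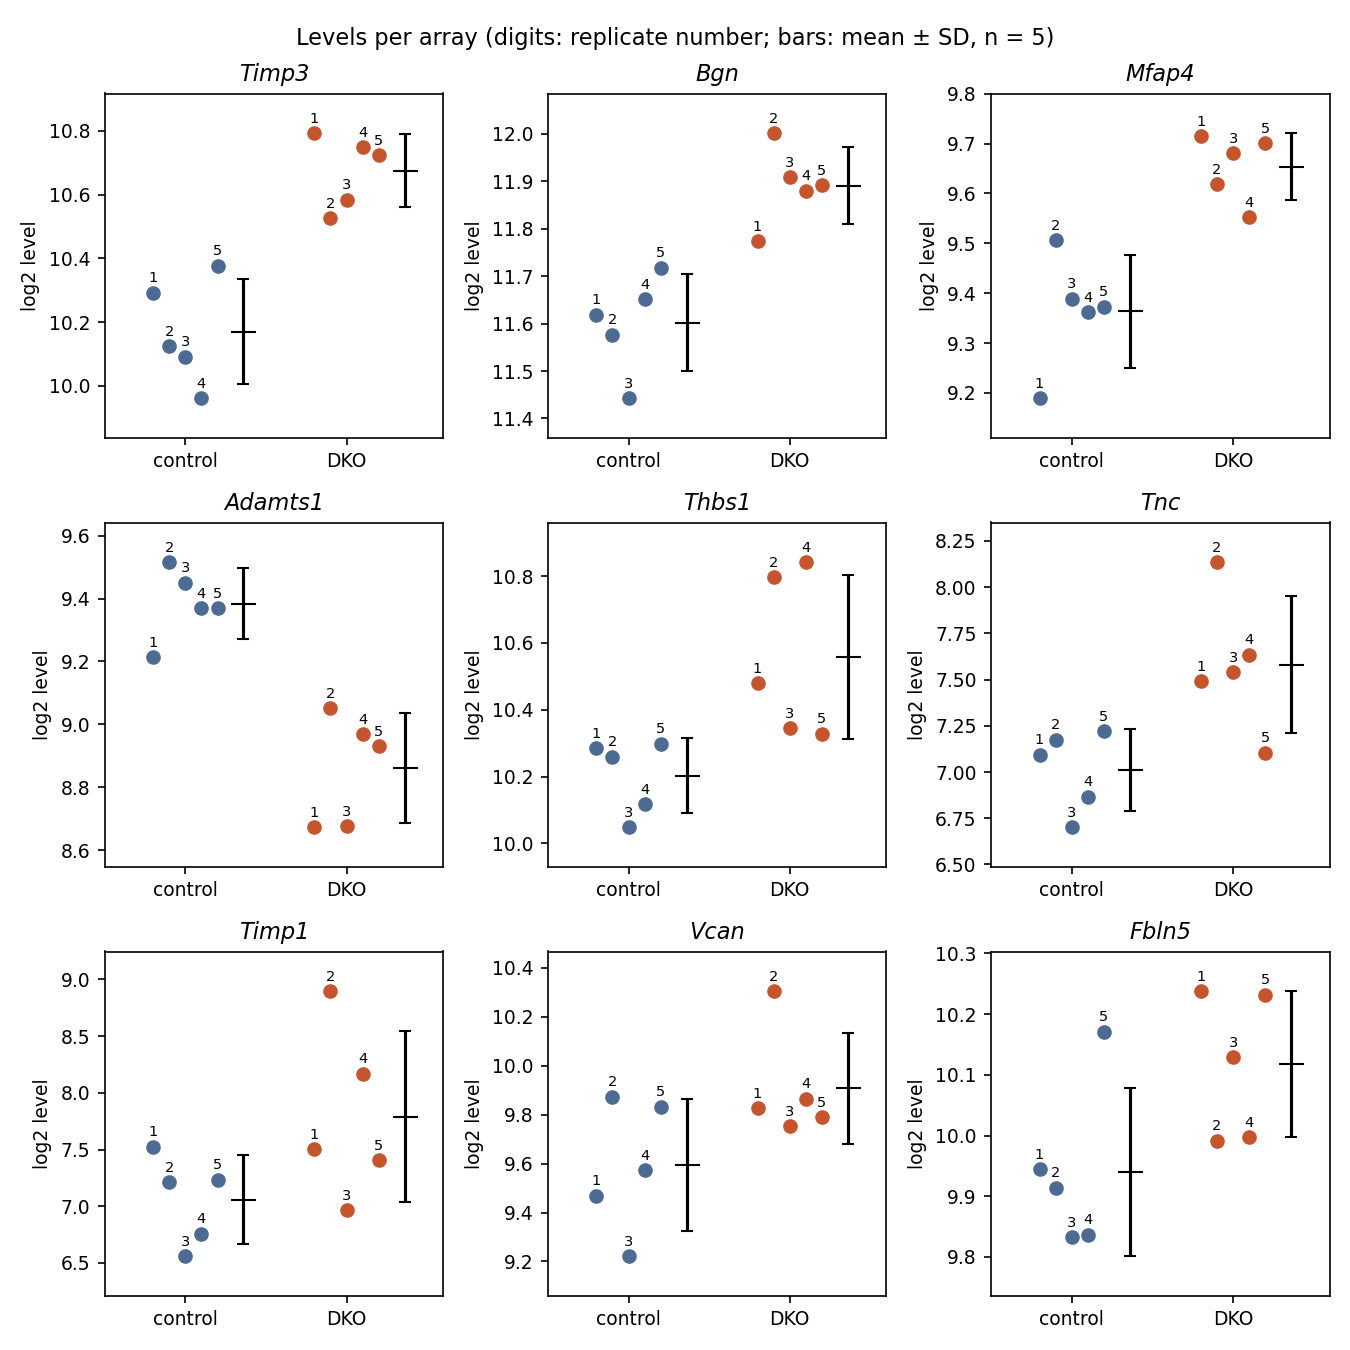
Log2 level in each array (points, with the replicate number) for the 9 genes with an unadjusted p under 0.05, control in blue and DKO in orange; bars give mean ± SD of 5 arrays and vertical axes differ between panels. The groups do not overlap for Timp3, Bgn, Mfap4, Adamts1 and Thbs1, and overlap for Tnc, Timp1, Vcan and Fbln5.

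Among the proteoglycans Bgn rose and the other 6 genes did not pass. Biglycan, the Bgn product, is a small leucine-rich proteoglycan that binds collagen fibrils. Its levels were 11.62, 11.58, 11.44, 11.65 and 11.72 in the control arrays and 11.77, 12.001, 11.91, 11.88 and 11.89 in the DKO arrays. The groups did not overlap, with DKO replicate 2 the highest and control replicate 3 the lowest. The mean moved from 11.60 ± 0.10 to 11.89 ± 0.08 (SD, n = 5 each), by 0.29 ± 0.06 (SE, limma adjusted p = 0.0372; 95% interval 0.15 to 0.43). This call lay close to the threshold: it ended when any of 8 arrays was removed (adjusted p 0.0551 to 0.0996, the latter without control replicate 2) and held only without control replicate 5 or DKO replicate 1, while the change stayed between 0.25 and 0.32. It also ended after quantile normalization (adjusted p = 0.0522), subtraction of array medians (0.0706), with the Xist level as a covariate (0.0503) and without control replicate 2 and DKO replicate 4 together (0.183).

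Decorin, encoded by Dcn, is a close relative of biglycan and was measured at 12.56 ± 0.08 in control and 12.59 ± 0.05 in DKO (SD, n = 5 each), a change of 0.03 (95% interval -0.09 to 0.14). The interval of Dcn lay below that of Bgn, and the difference between them was not tested. Lum, which organises collagen fibrils, changed by 0.12 (95% interval -0.03 to 0.27). Fmod, Ogn and Aspn, further leucine-rich proteins of the same family, varied widely within groups and changed by -0.10, -0.06 and 0.05, with SEs of 0.13 to 0.17.

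Vcan codes for versican, a large hyaluronan-binding proteoglycan and a substrate of ADAMTS1. It measured 9.47, 9.87, 9.22, 9.57 and 9.83 in the control arrays and 9.83, 10.30, 9.75, 9.86 and 9.79 in the DKO arrays. DKO replicate 2 stood above all other arrays, and the remaining DKO arrays lay within the control range. The difference of 0.31 ± 0.14 (SE) did not pass (limma adjusted p = 0.326, unadjusted p = 0.0454), and was 0.21 without DKO replicate 2.

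Adhesive and matricellular glycoproteins connect cells to the matrix or modulate that contact, and none of the 6 passed the test over all genes (limma; 2 at an unadjusted p under 0.05). Thbs1, the gene of thrombospondin-1, which restrains vessel growth and can activate latent TGF-beta, measured 10.29, 10.26, 10.05, 10.12 and 10.30 in the control arrays and 10.48, 10.80, 10.34, 10.84 and 10.33 in the DKO arrays. All DKO arrays were above all controls, but DKO replicates 3 and 5 only narrowly, and DKO replicates 2 and 4 stood apart from the others. The difference of 0.36 ± 0.11 (SE) did not pass (adjusted p = 0.142). Its relative Thbs2 changed by 0.06 (95% interval -0.07 to 0.19).

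Tenascin-C, the Tnc product, is a glycoprotein of developing and injured tissue. The Tnc levels were 7.09, 7.17, 6.70, 6.87 and 7.22 in the control arrays and 7.49, 8.13, 7.54, 7.63 and 7.11 in the DKO arrays. DKO replicates 1 to 4 were above every control, and DKO replicate 5 fell among the controls. The difference was 0.57 ± 0.17 (SE; adjusted p = 0.125), and 0.43 without DKO replicate 2. Fn1, the gene of fibronectin, differed by 0.18 (95% interval -0.05 to 0.41). DKO replicate 1 held high hepatocyte transcripts (mean log2 level of 16 markers 10.53, against 5.94 to 6.66 in the other arrays); its Fn1 level was 11.85, and without it the difference was 0.17. Sparc, a collagen-binding matricellular protein, and Postn, periostin, changed by 0.02 (95% interval -0.08 to 0.12) and -0.07 (-0.21 to 0.07).

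Elastic fibres consist of an elastin core on microfibrils. Of 7 measured genes of this group 1 rose, Mfap4, a fibrinogen-related glycoprotein that binds elastic fibres. Mfap4 measured 9.19, 9.51, 9.39, 9.36 and 9.37 in the control arrays and 9.71, 9.62, 9.68, 9.55 and 9.70 in the DKO arrays. No control reached the lowest DKO value, although control replicate 2 came near it and control replicate 1 was lowest. The mean rose from 9.36 ± 0.11 to 9.65 ± 0.07 (SD, n = 5 each), by 0.29 ± 0.06 (SE, limma adjusted p = 0.0379; 95% interval 0.15 to 0.43). The call ended when any of 8 arrays was removed (adjusted p 0.0601 to 0.0866, the latter without DKO replicate 1) and held only without control replicate 2 or DKO replicate 4, with changes of 0.25 to 0.32. Quantile normalization (adjusted p = 0.120), subtraction of array medians (0.0929) and the Xist covariate (0.0503) ended it too.

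Fbln5, fibulin-5, an organiser of elastic fibres, measured 9.94, 9.91, 9.83, 9.84 and 10.17 in the control arrays and 10.24, 9.99, 10.13, 9.997 and 10.23 in the DKO arrays. Control replicate 5 overlapped with the DKO range, and the difference of 0.18 ± 0.08 (SE) did not pass (limma adjusted p = 0.327, unadjusted p = 0.0460). Eln, elastin itself, changed by 0.13 (95% interval -0.05 to 0.32). Fbln1 and Fbln2, further fibulins, changed by 0.10 and 0.09, and Efemp1, a fibulin-like glycoprotein, by 0.002 (95% interval -0.28 to 0.28). Mfap5, a microfibril glycoprotein unrelated in sequence to Mfap4, changed by -0.02 (95% interval -0.21 to 0.18).

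Lysyl oxidases cross-link collagen and elastin. Neither of the 2 measured passed (limma; none at an unadjusted p under 0.05 either). Loxl1, which acts mainly on elastin, changed by 0.19 (95% interval -0.002 to 0.39), and Lox by 0.14 (-0.10 to 0.38). The genes that link basement membranes also did not pass, in 0 of 3 by either rule. Nid1 and Nid2 code for nidogens, which join laminin to collagen IV, and changed by 0.01 (95% interval -0.16 to 0.18) and -0.15 (-0.34 to 0.03). Hspg2, the gene of perlecan, changed by 0.11 (-0.07 to 0.28).

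Fibroblast and stellate cell markers did not pass the test in any of 5 genes, nor at an unadjusted p under 0.05 (limma). Pdgfra and Pdgfrb, receptors for platelet-derived growth factors on fibroblasts and on pericytes and stellate cells, changed by 0.20 (95% interval -0.04 to 0.44) and -0.02 (-0.18 to 0.14). Vim, the mesenchymal intermediate filament vimentin, stood at 12.54 ± 0.09 in control and 12.59 ± 0.06 in DKO (SD, n = 5 each). Des, desmin, a filament of stellate and muscle cells, changed by 0.06 (95% interval -0.15 to 0.27). Fap, a membrane protease of activated fibroblasts, changed by -0.09 (95% interval -0.30 to 0.11). In RNA of whole tissue, fewer cells of a type and less RNA per cell cannot be told apart.

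Within groups, the same arrays were low or high for many of these genes. Control replicates 3 and 4 held the lowest value of all 10 arrays for 15 and 13 of the 37 genes, and control replicate 5 the highest for 12. The mean log2 level of the 37 genes was 10.13, 10.17, 9.94, 9.94 and 10.25 in the control arrays and 10.08, 10.22, 10.18, 10.28 and 10.23 in the DKO arrays, by replicate number. DKO arrays thus lay inside the control range, apart from DKO replicate 4 just above it. The SD of these means was 0.14 in control and 0.08 in DKO.

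**Figure D3:**
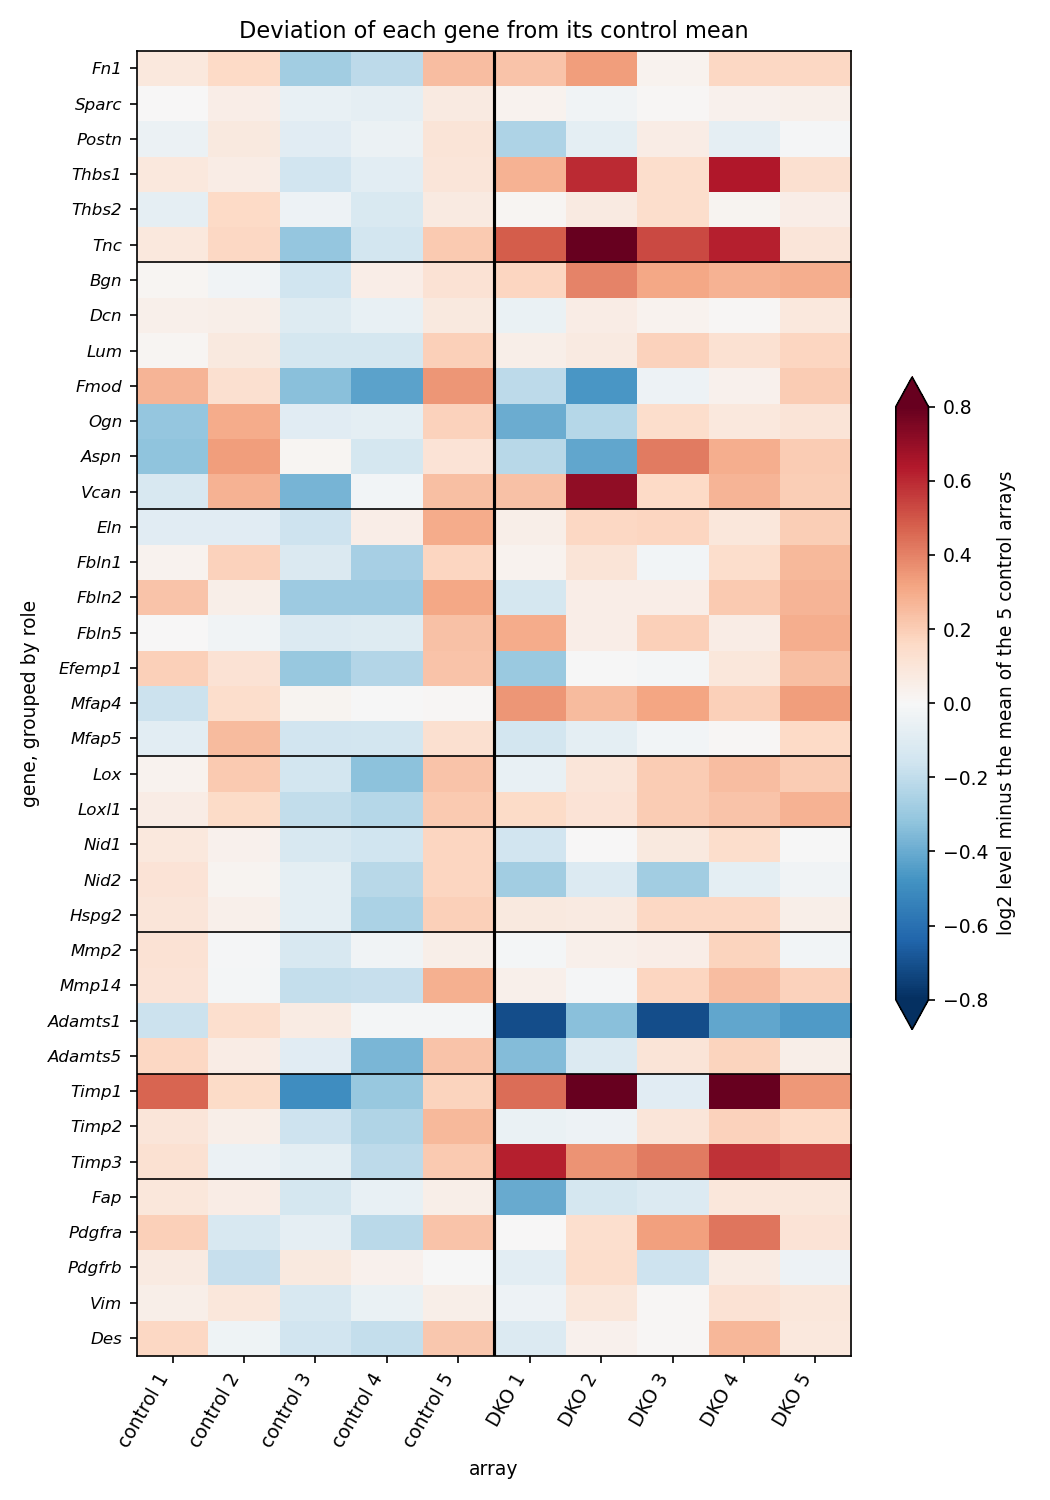
Log2 level of each of 37 genes (rows, grouped by role) in each array (columns), minus the mean of the 5 control arrays; red is above and blue below that mean, and the scale ends at 0.8 either way. Control replicates 3 and 4 are blue for most genes and control replicate 5 red, while Timp3, Bgn and Mfap4 are red and Adamts1 blue in all 5 DKO arrays.

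Markers of other cell types in the tissue were measured beside these genes. The mean of 8 duct epithelium markers was 9.97 to 10.12 in control and 10.39 to 10.56 in DKO. Of the 8, 3 were called higher (Cldn4, by 1.37, Krt7, by 1.22, and Krt19, by 0.41) and 1 lower (Tff2). These 4 are 50% of the list, beside 2.44% of all genes. All 8 had an unadjusted p under 0.05, 6 higher and 2 lower, beside 14.8% of all genes. The groups did not overlap for 6 of the 8 (4 above and 2 below), beside 4.80% of all genes. Cftr, Epcam and Krt18 rose by 0.50, 0.28 and 0.27 without passing (limma adjusted p = 0.113, 0.0758 and 0.0576). Sox9 was lower in every DKO array than in any control and changed by -0.26, without passing (limma adjusted p = 0.149). Tff2 stood at 13.03 in control, the highest of the list. The mean of 11 acinar markers was 11.92 to 12.01 in control and 11.49 to 11.92 in DKO. Of the 11, 1 was called higher (Syt11) and 1 lower (Rbpjl), 18.2% of the list. Syt11 stood at 7.28 in control, the lowest of the list, whose median was 12.99. Which cells made the RNA of Syt11 and Tff2 was not tested. Endothelial markers, means of 12 genes, lay at 9.21 to 9.42 in control and 9.23 to 9.41 in DKO, and smooth muscle markers, means of 7 genes, at 7.28 to 7.47 and 7.30 to 7.46, with none called in either list (limma; 1 gene of each at an unadjusted p under 0.05). The part of the duct and acinar markers in the changes of Timp3, Adamts1, Bgn and Mfap4 was not tested.

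Adipocyte markers were more uneven among the DKO arrays than among the controls (SD of the array means 0.99 against 0.17). Macrophage markers were not (0.16 against 0.19). The mean of 7 adipocyte markers was 7.30, 9.42, 6.99, 8.65 and 8.05 in DKO replicates 1 to 5 and 7.99 to 8.45 in control, so that DKO replicates 2 and 4 were highest, as they were for Timp1, Tnc and Thbs1. The mean of 9 macrophage markers was 9.14 to 9.55 in DKO, again highest in replicates 4 and 2. In control it was 9.16 to 9.62, with control replicate 2 the highest of all 10 arrays. No adipocyte or macrophage marker was called (limma; 0 of 7 and 4 of 9 at an unadjusted p under 0.05). The 4 macrophage markers (44.4% of their list, beside 14.8% of all genes) were 3 higher and 1 lower in DKO. Of the 9, 7 were above 0 (77.8%, beside 47.6% of all genes). The part of adipocyte and macrophage markers in the levels of Timp1, Tnc and Thbs1 was not tested. Mesothelial markers, means of 7 genes, were 8.68 and 8.53 in control replicates 3 and 4 and 8.52 and 8.70 in DKO replicates 1 and 2, against 9.02 to 9.22 in the other 6 arrays.

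**Figure D4:**
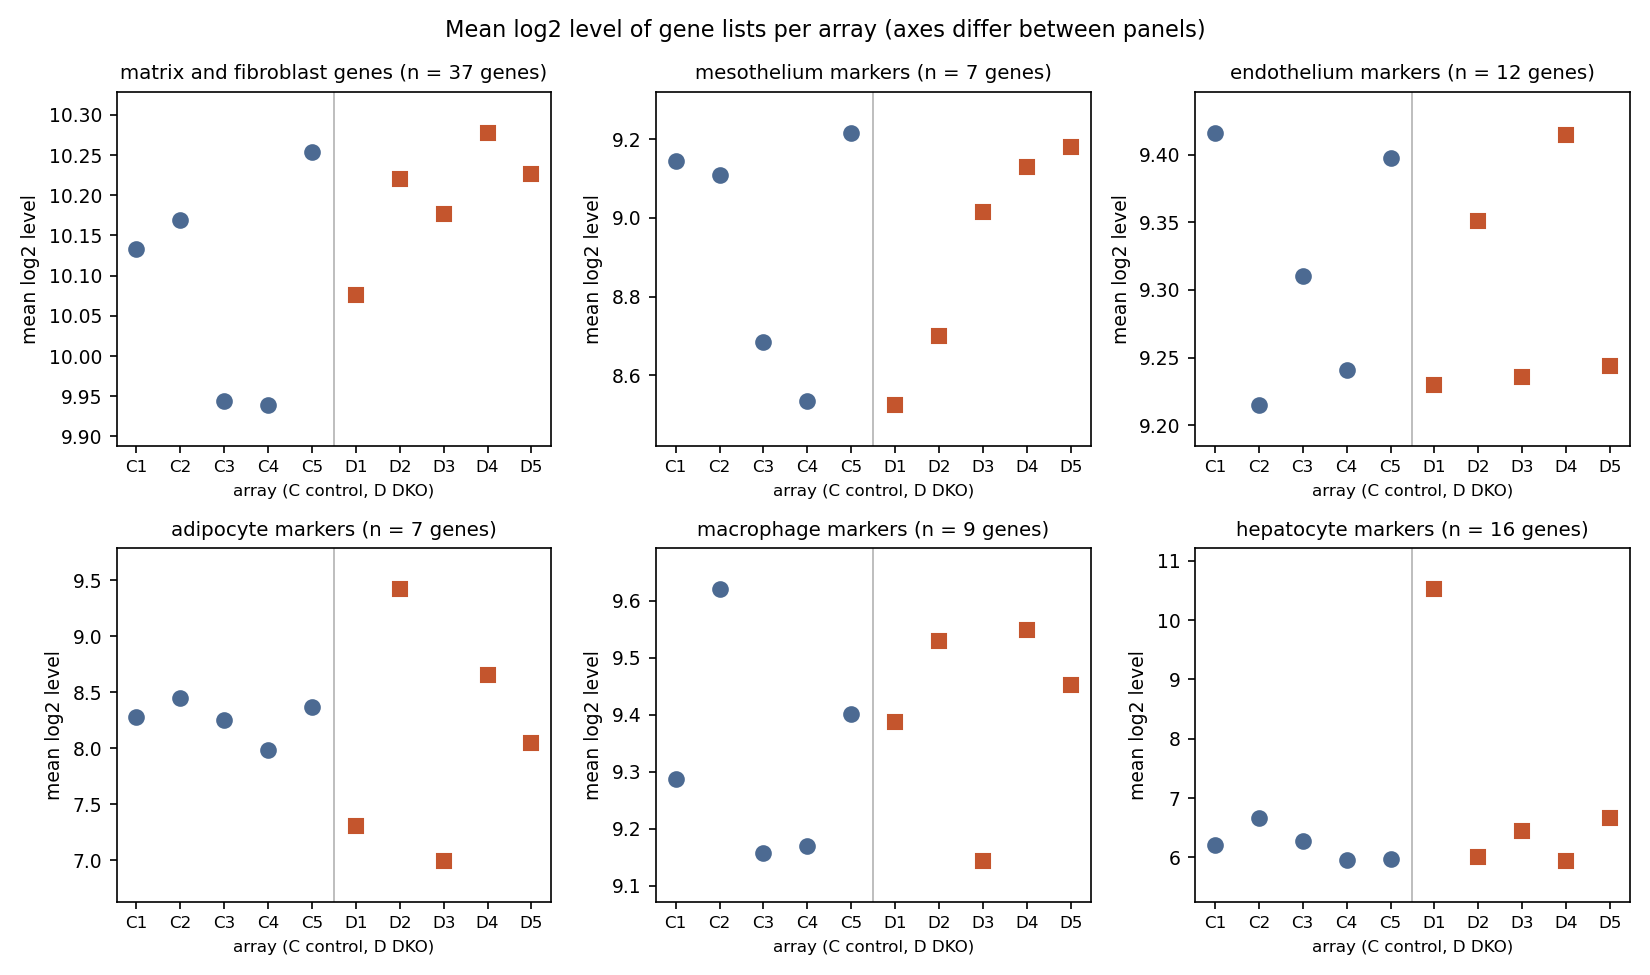
Mean log2 level of 6 gene lists in each array (C1 to C5 control, blue circles; D1 to D5 DKO, orange squares); vertical axes differ between panels. Adipocyte markers are highest in D2 and D4, hepatocyte markers in D1, and mesothelial markers are low in C3, C4, D1 and D2.

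Further matrix and stromal genes were followed in 3 other lists, with 92 of their genes measured. Of these 2 were called, both higher (2.17%, beside 2.44% of all genes), 15 had an unadjusted p under 0.05 (16.3%), and the median change was 0.03. Mmp11, stromelysin-3, a protease of stromal cells, measured 7.43 to 7.70 in control and 7.86 to 8.15 in DKO, and rose by 0.44 ± 0.07 (SE, limma adjusted p = 0.00725). Cygb, cytoglobin, a globin of stellate cells and fibroblasts, stood at 10.53 to 10.56 in control and 10.70 to 10.93 in DKO, and rose by 0.29 ± 0.05 (SE, limma adjusted p = 0.0155). Both calls held without any 1 array. With control replicate 2 and DKO replicate 4 both removed, the test was missed by Mmp11 (adjusted p = 0.0645) and by Cygb (0.104).

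By list, 0 of 37 other glycoproteins and proteoglycans passed (limma), 1 of 31 other proteases, cross-linkers and inhibitors, and 1 of 24 fibroblast, stellate cell and pericyte markers. At an unadjusted p under 0.05 there were 7, 4 and 4 (18.9%, 12.9% and 16.7%, beside 14.8% of all genes). The 4 of the last list were all higher in DKO: Cygb, Pdpn (by 0.39), Thy1 (0.31) and Mcam (0.27). In that list 11 genes were above 0 and 13 below. Acta2, the smooth muscle actin of activated stellate cells, measured 10.60 to 10.97 in control and 10.65 to 10.89 in DKO, a change of 0.02 ± 0.08 (SE, adjusted p = 0.942).

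Facts of the whole series bear on all of these values. In all, 487 of 19938 genes were called, 414 higher and 73 lower (85.0% higher), and the split was 321 to 125 after quantile normalization (72.0% higher) and 271 to 103 after subtraction of array medians (72.5%). Array medians over all clusters were 7.12 to 7.15, and the correlation (r) across genes was 0.976 to 0.995 for every pair of arrays. Stk4, which codes for MST1, measured 5.01 to 5.23 over all arrays, near the levels of Y-linked genes in the Xist-high arrays (3.99 to 5.21), so it gave no check of the labels; MST2 was not analysed here. Xist was high in 3 control and 2 DKO arrays. The lowest value of any matrix or fibroblast gene in any array was 6.56.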

How the data were processed

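Total RNA of 10 mouse pancreas samples was labelled with biotin and measured on Affymetrix Mouse Gene 1.0 ST arrays, per the labels' protocols. The authors deposited log2 levels, 1 per transcript cluster and array, made with Affymetrix Expression Console per the submitters' processing notes. How it was set (background, summarization, normalization) and its version are not given here. The levels range from 2.79 to 13.94, with like array medians over all clusters, and were used as deposited. The number of arrays limits the precision (median SE 0.0754).

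Of 35556 clusters 21789 had 1 gene symbol, 1621 several and 12146 none in the platform annotation. RefSeq (GRCm38.p6) held a match for 21698 clusters, and its symbol was used for these. The brightest cluster stood for each of 19938 genes, and each of the 37 genes described has a single such cluster. DKO was compared with control with limma 3.58.1 in R 4.3.3 (lmFit, eBayes, two-sided, 10.96 total degrees of freedom), with Benjamini-Hochberg adjustment over all genes and a threshold of 0.05. Unless another is named, p-values are from this fit, and intervals are 95%. Lists are described by counts and medians and were not tested.

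The members and lists were chosen with earlier results of these data known. Named were genes past an unadjusted p of 0.05 or without overlap between groups, with values in every array, the 2 brightest of each role and relatives of called genes; of the other lists, genes past the threshold. Acta2, Adamts4, Adamts9, Adamts15, Pdpn, Thy1, Mcam, the duct markers and the called acinar markers were named after their values were seen. A simulated comparison of DKO with control over 19938 genes was also fitted. With a log2 difference of 0.5 put in, 73.1% of 67 genes were recovered, and with a difference of 1, 98.5% of 67. False calls numbered 12. Whether the simulated arrays held deviations shared by many genes, as the measured arrays do, is not shown. These rates may therefore not apply to the measured data.

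Alternatives were quantile normalization, subtracted array medians, a filter that dropped the dimmest 25% or 50% of genes, a trended and robust variance, averaged clusters, the replicate block, the Xist covariate, and leaving out single arrays or control replicate 2 and DKO replicate 4 together.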

Additional observations from a re-analysis of the deposited data

Results flagged for a closer look

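Vcan in DKO replicate 2, at 10.30, stood far above the other 4 DKO arrays, which measured 9.75 to 9.87. The gap was 0.797 of the range of the group. It was the only such case among 74 groups of 5 arrays examined (37 genes in control and in DKO), and chance alone marks about 1 in 20 groups. The same array held the highest adipocyte marker mean (9.42), and its part in the Vcan level was not tested.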

How the results depend on the processing

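Over 19 alternatives, the 33 genes of the list that were not called remained uncalled under each in which they were tested (18 for Tnc and Timp1, which are among the dimmest 50% of genes), and 10 genes whose change was at most 0.06 in size took the other sign under at least 1 of them. The count of called genes in the list, 4, was 2 after quantile normalization, after subtraction of array medians and with the Xist covariate. The count of genes whose groups did not overlap, 5, was 3 after quantile normalization and 3 after subtraction of medians. The median change of the list was 0.07 after quantile normalization (26 genes above 0) and 0.03 after subtraction of medians (24 above 0). Over all genes it was -0.01 and -0.05. Without control replicate 2 and DKO replicate 4 together, 151 of all genes were called, against 487, with 1 gene of the list (Mfap4) and 0 of the other matrix lists (limma; 10 of 92 at an unadjusted p under 0.05); that fit has fewer samples. Trended and robust variance called 4 of the other matrix lists in place of 2; the cause was not tested. Leaving out 1 array gave 260 to 433 genes in all, 2 to 3 of the list, 5 to 6 without overlap and 2 to 3 of the other lists.

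No pairing by replicate number was seen: deviations of same-numbered arrays correlated with r of -0.27, -0.20, 0.29, -0.22 and 0.21 over 19938 genes. No control array was matched best by the DKO array of its own number. This check cannot show whether same-numbered samples shared a litter or day. With the replicate block 178 genes were called in all, 2 of the list (Timp3, adjusted p = 0.0420, and Adamts1, 0.0301; Bgn, at 0.150, and Mfap4, at 0.163, were not) and 0 of the other matrix lists (limma; 13 at an unadjusted p under 0.05). The number of arrays and the unknown normalization limit differences of about 0.2 or less on the log2 scale.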

Other observations

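The 4 arrays with the lowest mesothelial marker mean (control replicates 3 and 4, DKO replicates 1 and 2) were also the 4 with the lowest level of Fmod, Adamts5 and Timp2, in 3 of the 37 matrix and fibroblast genes (8.11%) and 269 of all 19938 genes (1.35%). Fmod measured 8.72, 8.62, 8.84 and 8.59 in these arrays, and 9.01 to 9.41 in the others. This order was looked for after the values were seen and was not tested.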
